A study of Mus musculus with 20 samples.

Results

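Paternal and maternal pronuclei of WT mouse zygotes cultured without an inhibitor (mock) were compared on 1 common set of genomic tiles. The comparison used 4 of the 20 libraries of the series: paternal replicates 1 and 2 against maternal replicates 1 and 2. DNA methylation was read by reduced representation bisulfite sequencing, which enriches for CpG-rich stretches between MspI cut sites. WT zygotes came from superovulated females of 7 to 10 weeks that carried the floxed Tet3 alleles without Cre (f/f). Their oocytes were fertilised in vitro with sperm of C57BL/6J males. Pronuclei were taken out by hand at 12 hours after fertilisation and frozen at 13 hours. The paternal one was told from the maternal one by its size and by its distance from the second polar body. Per the labels a library typically started from about 20 pronuclei, so each value is a mean over a small pool. Nothing in the labels says that replicates came from separate animals, or whether both parents' libraries came from the same zygotes, so the spread given may be technical.

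A pronucleus holds the chromosomes of 1 parent before the first cleavage. Sperm and egg bring genomes with different methylation patterns, and both lose methylation in the zygote while they are still apart. The dioxygenase Tet3 oxidises 5-methylcytosine, mainly in the paternal pronucleus, and each round of DNA replication dilutes methylation that is not copied to the new strand. Bisulfite reads 5-methylcytosine and 5-hydroxymethylcytosine alike, so oxidation to the latter does not by itself lower the values given here.

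A tile was a 100-bp window with at least 2 autosomal CpG positions covered by 5 or more reads in the 4 pronuclear libraries, both sperm and both oocyte libraries. This left 103160 tiles. The gametes alone put them in classes: 12530 tiles stood at 75% or more in both gametes, 15876 at 75% or more in sperm and 25% or less in oocytes, 3181 the other way round, and 61411 at 25% or less in both. The other 10162 tiles were partly methylated in at least 1 gamete. The 4 pronuclear libraries held 37303719 to 66360907 CpG calls, and the median tile had between 135 and 182 calls per library. Paternal replicate 1 was the thinnest, with 877632 positions of 5 or more reads against 1322820 to 1452585 in the other 3.

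The labels of parental origin were first set against chromosome Y and the tiles methylated in 1 gamete. Chromosome Y, which only sperm can bring, took 0.0178% and 0.0150% of calls in the paternal libraries and 0.000692% and 0.000198% in the maternal ones, and there was no overlap. Tiles methylated in oocytes alone stood at 3.96% and 5.23% in the paternal libraries, where sperm had 3.88% ± 0.00659 (SD, n = 2). Tiles methylated in sperm alone stood at 3.95% and 4.54% in the maternal libraries, where oocytes had 4.22% ± 0.00329 (SD, n = 2). The largest excess over the own gamete was 1.35 percentage points, in paternal replicate 2. It sets no limit on the share of the other parent, since demethylation of a library's own genome lowers the level it is read against, and that share was not estimated.

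At tiles methylated in both gametes, where both gametes had nearly the same level, the paternal genome was far less methylated than the maternal one. Sperm stood at 96.4% ± 0.0328 and oocytes at 96.5% ± 0.0733 (SD, n = 2 each). The paternal libraries were at 49.8% and 53.4%, and the maternal libraries at 80.1% and 83.6%. The means were 51.6% ± 2.60 and 81.8% ± 2.50 (SD, n = 2 each), a difference of -30.2 points. All 4 differences between single libraries lay between -33.8 and -26.6 points, several times the gap between replicates. The exact two-sided permutation p was 0.333, the smallest that 2 against 2 can give, and stayed at 0.333 after Benjamini-Hochberg adjustment over the 9 exact tests of means made here. This p is the same for every class below.

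Set against its own gamete, the paternal genome kept 51.6% and 55.4% of the sperm level and the maternal genome 83.0% and 86.6% of the oocyte level. The paternal loss was thus 46.5% and the maternal loss 15.2% of the gamete level, a ratio of 3.06 that lay between 2.62 and 3.62 over the 4 pairs of libraries. Both genomes were below their gamete in both libraries. The gamete levels that chose these tiles are also the levels divided by, so the choice can raise them. Left out of the classing, either oocyte library stood at 95.1%, and the sperm libraries at 96.3% and 96.4%. How far this moves the losses and their ratio was not tested. The gamete files list chromosomes unsorted and the WT mock files sorted, so for every value set against a gamete a difference in processing cannot be told apart from the stage. All 4 files of the comparison of the parents are sorted. This does not show that the libraries shared a preparation or a batch, which the labels do not give.

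**Figure D1:**
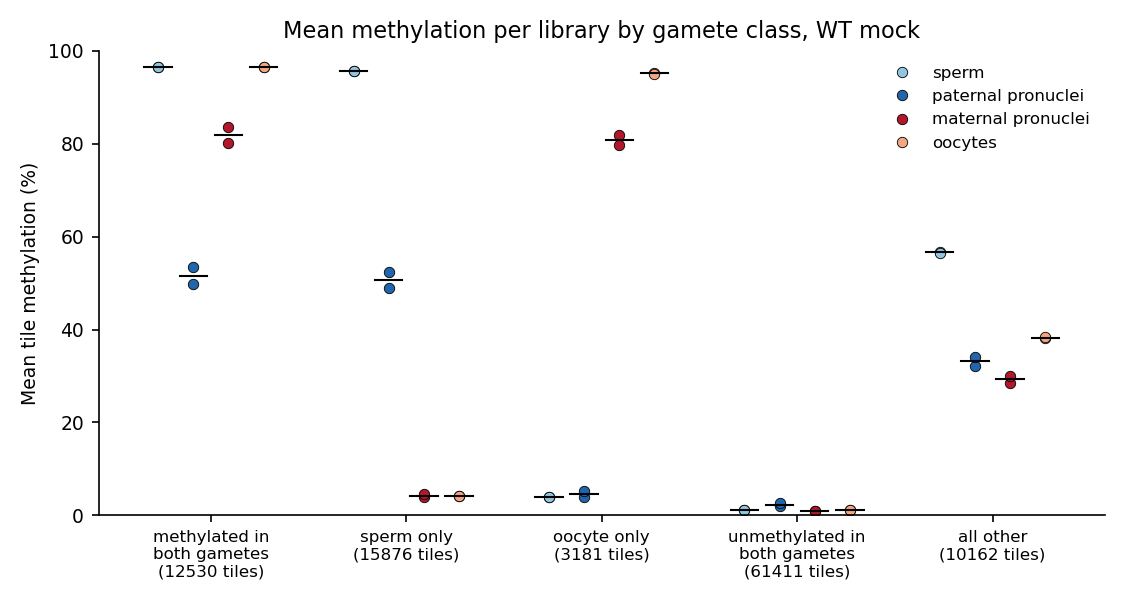
Mean methylation (%) of each library in the 5 gamete classes of tiles, with 1 point per library and a bar at the mean of the 2 libraries of a group; the last class holds all other tiles. In tiles methylated in both gametes the paternal points lie at 49.8% and 53.4% and the maternal ones at 80.1% and 83.6%, below the gametes near 96%.

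Tiles methylated in a single gamete gave the same 2 levels. Sperm-only tiles, at 95.6% in sperm, stood at 48.9% and 52.3% in the paternal libraries, which is 0.924 and 1.12 points below the tiles methylated in both gametes of the same library. Oocyte-only tiles, at 95.2% in oocytes, stood at 79.7% and 81.8% in the maternal libraries, 0.351 and 1.78 points below the tiles methylated in both gametes. These gaps were small beside the difference between the parents. The level that a genome kept was thus close to the same at tiles that the other gamete also methylated and at tiles that it did not.

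The mean difference between the parents therefore took its sign from the class. Paternal minus maternal was 46.3 points in sperm-only tiles (4 differences between 44.3 and 48.4) and -76.2 points in oocyte-only tiles (between -77.9 and -74.5). Over all 103160 tiles the paternal mean was the higher one, at 18.8% ± 1.11 against 16.5% ± 0.553 (SD, n = 2 each), with more tiles methylated in sperm alone than in oocytes alone. That difference of 2.28 points turned to -0.126 when tiles were weighted by their calls. Partly methylated tiles stood at 33.2% ± 1.40 in paternal and 29.3% ± 1.03 in maternal libraries (SD, n = 2 each), from 56.6% in sperm and 38.2% in oocytes.

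Tiles unmethylated in both gametes went the other way from those methylated in both. The paternal libraries were at 1.98% and 2.57%, above sperm at 1.10% ± 0.00977 (SD, n = 2), and the maternal libraries at 0.912% and 1.00%, below oocytes at 1.15% ± 0.0523 (SD, n = 2). The difference between the parents was 1.32 points, with the 4 differences between 0.980 and 1.66. With 1000-bp tiles it was 1.94. Weighted by calls it was 0.342 points and the parents overlapped, with the 4 differences between -0.0239 and 0.707 (exact two-sided permutation p = 0.667). Paternal replicate 1 was then at 2.34%, below 1 sperm library at 2.49%.

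The lower paternal level was found on every autosome. Over the 12530 tiles methylated in both gametes, split by chromosome into sets of 342 to 1263, the paternal mean lay between 50.2% (chromosome 11) and 54.9% (chromosome 1) and the maternal mean between 78.7% (chromosome 18) and 84.8% (chromosome 5). The difference ran from -33.3 points on chromosome 5 to -25.1 on chromosome 6, and all 4 differences between libraries were below 0 on 19 of 19 autosomes. No order of chromosomes was tested.

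**Figure D2:**
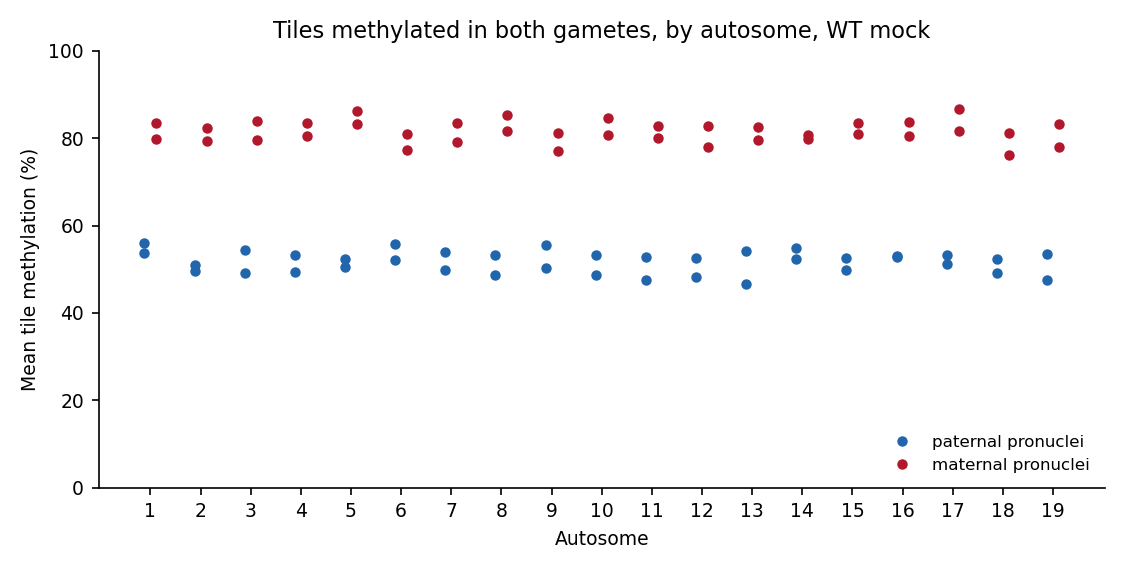
Mean methylation (%) of tiles methylated in both gametes on each of the 19 autosomes, with 1 point per library. On every autosome both paternal points lie below both maternal points, and the 2 bands run level from chromosome 1 to 19.

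The number of positions and the depth of a tile went with the level of both genomes in the same direction. Tiles with 5 or more covered positions stood at 55.3% ± 1.22 in paternal and 85.8% ± 2.00 in maternal libraries, and tiles with 2 positions at 51.0% ± 2.76 and 80.8% ± 2.42 (SD, n = 2 each), so the parental difference was -30.5 and -29.7 points. From the lowest to the highest depth quartile of tiles, the paternal mean went from 46.7% to 55.9% and the maternal mean from 79.9% to 84.0%, and the difference from -33.2 to -28.1 points. Depth here is calls summed over the positions of a tile, so it is not separate from their number. It moved with the level. How far it sets the difference was not tested. With the level of the lower gamete the 2 genomes went in opposite directions. Where that gamete was at 95% or more the parents stood at 51.0% and 84.3%, a difference of -33.3 points. Sperm there had 97.7% and oocytes 99.0%. Where it was between 75% and 90%, in 1978 tiles, the parents stood at 53.4% and 72.0%, a difference of -18.6 points. Sperm there had 92.2% and oocytes 87.4%, so the maternal genome started lower. Whether the parental difference changes beyond these unequal starting levels was not tested. Only 4 tiles had over 10 times the median depth and there the paternal level was 79.6% ± 1.23 and the maternal 83.5% ± 1.68 (SD, n = 2 each).

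The means hid a wide spread among single tiles. In paternal replicate 1, 33.7% of the tiles methylated in both gametes were at 25% or less, 33.1% at 75% or more and 33.2% between. In paternal replicate 2 the shares were 21.5%, 29.1% and 49.4%. The maternal libraries had 5.15% and 2.71% of tiles at 25% or less and 69.0% and 75.9% at 75% or more. Paternal replicate 1, the thinnest library, had the most tiles at the extremes: 28.7% at 5% or less and 25.5% at 95% or more, against 13.6% and 14.1% in replicate 2. The part of library complexity in this was not tested.

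**Figure D3:**
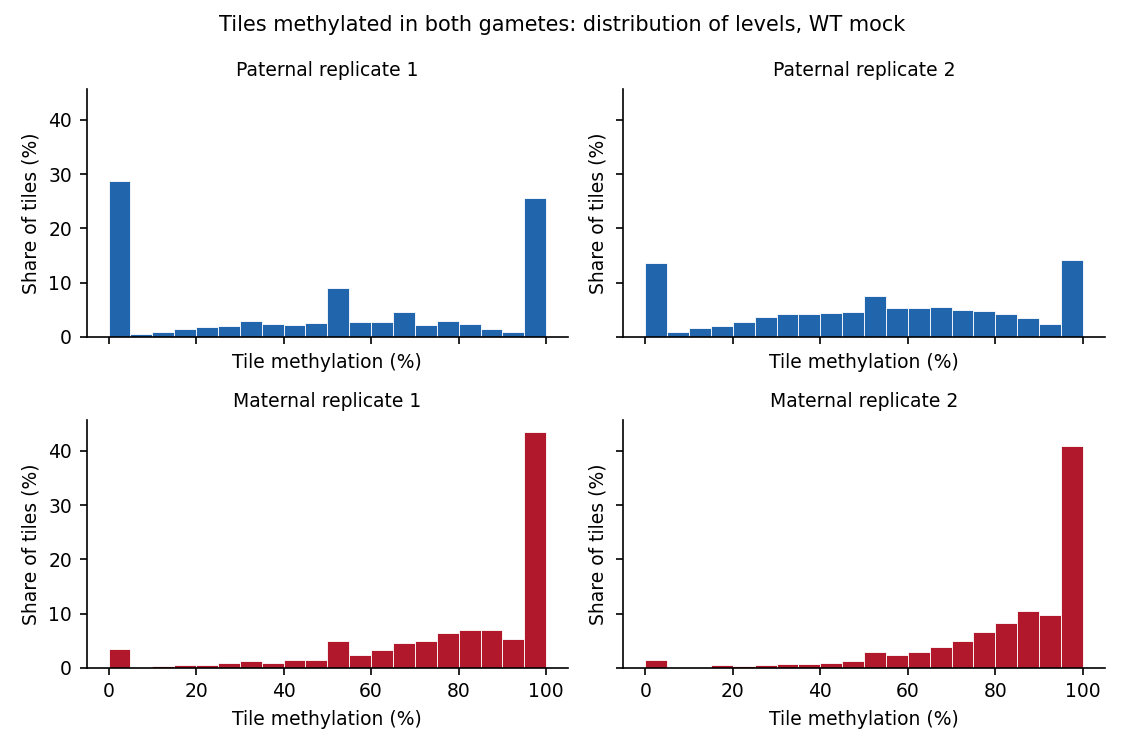
Share of the 12530 tiles methylated in both gametes (%) by their methylation in bins of 5 points, in each of the 4 libraries. Both paternal libraries have a peak at each end with a broad middle, whereas both maternal libraries have 1 main peak, with 43.5% and 40.8% of tiles at 95% or more.

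Tiles that were low in both libraries, or high in both, were a minority in the paternal genome. Both paternal libraries were at 25% or less in 1260 of the 12530 tiles (10.1%) and at 75% or more in 1744 (13.9%). Both maternal libraries were at 75% or more in 7059 tiles (56.3%) and at 25% or less in 84 (0.670%). The 2 parents were in opposite states, paternal low and maternal high, in 623 tiles (4.97%), and in the reverse states in 16 (0.128%). All 4 libraries stayed at 75% or more in 1075 tiles (8.58%) and all 4 were at 25% or less in 12 (0.0958%).

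Across tiles, the level in 1 library told little of the level in the other. As a description over the 12530 tiles, which share libraries and depth, Pearson's r between replicates was 0.226 in paternal and 0.281 in maternal libraries, and 0.0562 between the paternal and the maternal mean. Adjoining tiles, which can lie on the same MspI fragment, were more alike (r = 0.455 in paternal and 0.445 in maternal means, 1330 pairs). For neighbours over 10000 bp apart r was 0.00921 and 0.0682 (8180 pairs).

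Both paternal libraries lay below both maternal ones in 6076 of the 12530 tiles (48.5%), against 12.6% of all 103160 tiles. They lay above in 576 (4.60%), against 15.2% of all tiles. The median tile difference was -31.2 points, with 90% of tiles between -83.0 and 24.1, whereas the median over all tiles was 0.

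Each tile was then tested with a quasi-binomial model of the methylated and unmethylated calls, with Benjamini-Hochberg adjustment over all 103160 tiles. A call needed a difference of 10 points or more with an adjusted p below 0.05. The dispersion used was that of the trend over depth, so the p of a tile or region does not measure its own replicate spread. Of all tiles, 1933 (1.87%) were called lower and 1465 (1.42%) higher in paternal pronuclei. Among tiles methylated in both gametes 197 (1.57%) were called lower, close to the share over all tiles. In this class 7 tiles (0.0559%) were called higher, below the share over all tiles. The 197 tiles stood at 11.8% and 22.2% in the paternal libraries and 94.9% and 94.6% in the maternal ones, with 95.7% in sperm. They had a median of 4 positions and 278 calls, against 2 and 128 in their class. At an unadjusted p under 0.05 the counts were 2046 lower and 69 higher of the 12530 tiles of the class. They were 5838 and 8249 of all 103160 tiles. Without maternal replicate 1 or 2 the calls in this class were 6 and 7 lower and 0 higher, where the dispersion came from the paternal pair alone. They were 127 lower without paternal replicate 1 and 4 higher without paternal replicate 2. Over all tiles the counts were 462 and 602 lower and 64 and 123 higher without maternal replicate 1 and 2.

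In the classes methylated in a single gamete the class rule largely sets the direction of the difference. Calls there are a description and do not check the test. Of the 3181 oocyte-only tiles 1419 (44.6%) were called lower in paternal pronuclei, at 1.15% and 1.76% against 90.4% and 91.0%. Of the 15876 sperm-only tiles 1129 (7.11%) were called higher, at 83.1% and 80.6% against 1.62% and 2.19%. The quasi-binomial model called 0 tiles against the gametes' direction in either class, with 6 sperm-only and 1 oocyte-only tile at an unadjusted p under 0.05 in that direction. Limma on arcsine square roots called 7 and 1, and the quasi-binomial model in 1000-bp tiles called 5 and 0. Without maternal replicate 1 and 2 the calls were 403 and 517 oocyte-only and 45 and 96 sperm-only tiles. In simulated counts, 3 of 66 tiles lowered by 60 points were called, so that an uncalled tile is not an unchanged one.

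Regions of at least 2 called tiles, less than 500 bp apart, were ranked by difference, and are given with their mm9 position. No annotation of that build was used here, so they carry no gene names and no sequence. Tiles methylated in both gametes gave 7 regions lower in the paternal genome, of which the first 6 follow. Chromosome 17, 27254301 to 27254500 stood at 10.0% and 6.25% in the paternal libraries and at 100% in both maternal ones (highest adjusted p = 0.0447 in the quasi-binomial model). Chromosome 5, 147548101 to 147548300 stood at 0% (0 of 195 calls, which allows up to 1.54%) and 22.7% against 100% and 99.9% (highest adjusted p = 0.0285). Chromosome 17, 56420901 to 56421100 stood at 0% (0 of 291 calls, up to 1.03%) and 7.74% against 87.4% and 92.4% (highest adjusted p = 0.0249). These 3 regions were near the gamete level in the maternal genome and at 10.0% or less in at least 1 paternal library.

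The other 3 regions had smaller differences. Chromosome 10, 80870301 to 80870500 was at 10.1% and 22.6% against 100% and 93.6% (highest adjusted p = 0.0381). Chromosome 5, 122319201 to 122319400 was at 0.133% and 27.9% against 83.0% and 98.8% (highest adjusted p = 0.0454). Chromosome 6, 91344401 to 91344600 was at 24.5% and 32.3% against 94.6% and 94.8% (highest adjusted p = 0.0150). It was the most deeply read of the 6, with 556 calls per tile and library. Non-overlap of the parents and a large difference, in these same libraries, were part of the rule that chose these regions. Their differences with 1 library left out are therefore large by choice and add no support. Without maternal replicate 1 no tile of these 6 regions was called and without replicate 2 none in 5 of them, while their differences without any 1 library stayed between -99.9 and -62.3 points. The chromosome 5 region at 122319201 also lost its call without paternal replicate 1. The first region, on chromosome 17 at 27254301, also lost its call with the replicate number as a block, by limma, and with the dispersion floored before shrinkage.

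The reverse state was rare and was seen at single tiles. Chromosome 16, 46257601 to 46257700 stood at 100% and 84.4% in the paternal libraries and at 0% (0 of 273 calls, up to 1.10%) and 12.6% in the maternal ones (adjusted p = 0.0369 in the quasi-binomial model). Chromosome 10, 12973601 to 12973700 stood at 100% and 69.1% against 0% in both maternal libraries (0 of 115 and of 190 calls, up to 2.61% and 1.58%, adjusted p = 0.0177). Chromosome 6, 93506501 to 93506600 stood at 84.0% and 88.2% against 0.307% and 7.94% (adjusted p = 0.0115). Oocytes had between 80.5% and 92.4% at these 3 tiles. The class and the ranking by difference chose them, so a maternal level far below the oocytes is there by choice and adds no support. None of the 3 kept its call without either maternal library, the first 2 lost it without paternal replicate 1, and the third without paternal replicate 2.

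**Figure D4:**
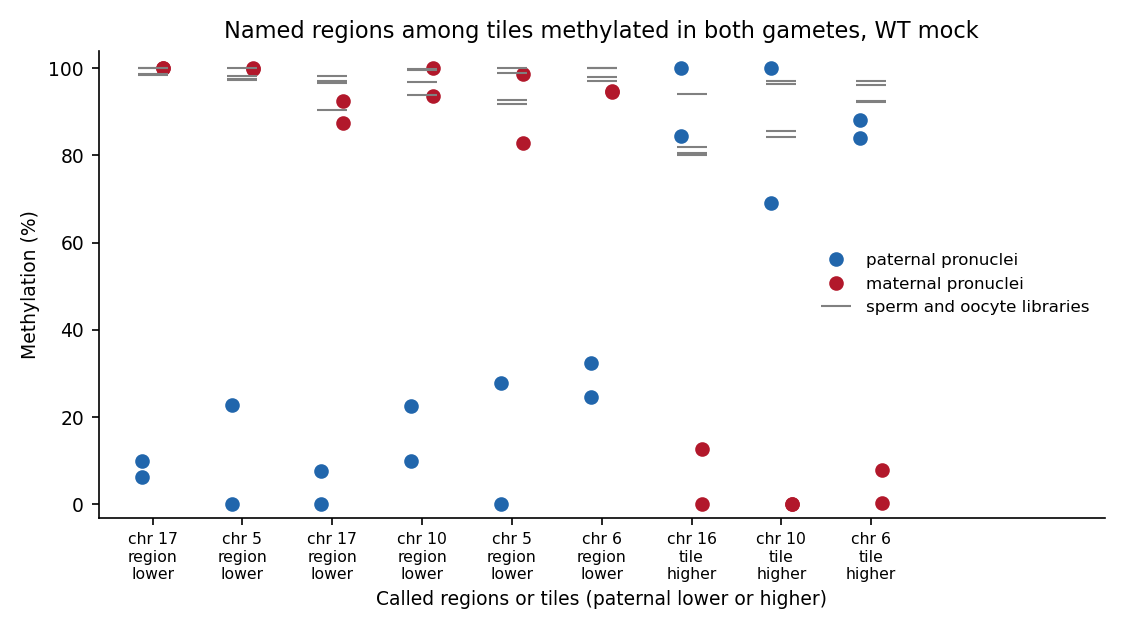
Methylation (%) of the 9 named regions or tiles methylated in both gametes, with 1 point per pronuclear library and grey dashes for the 4 gamete libraries. In the first 6 the paternal points lie at 32.3% or less and the maternal ones at 83.0% or more; in the last 3 this is turned round.

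Among tiles unmethylated in both gametes 175 (0.285%) were called higher and 24 (0.0391%) lower in paternal pronuclei, both below the shares over all tiles. The 175 tiles stood at 56.4% and 56.7% in the paternal libraries, 0.673% and 1.03% in the maternal ones and 2.73% in each sperm library. They had a median of 7 positions, against 4 in their class. The first regions were at chromosome 2, 74538901 to 74539100 (96.5% and 80.3% against 0.118% and 1.91%), chromosome 2, 155340301 to 155340500 (78.4% and 79.9% against 0% in 617 and 846 calls, up to 0.486% and 0.355%) and chromosome 9, 21936201 to 21936500 (82.0% and 69.3% against 0% in 412 and 447 calls, up to 0.728% and 0.671%). Their highest adjusted p in the quasi-binomial model were 0.0331, 0.0271 and 0.0334. The region at 155340301 kept a called tile whichever library was left out, and the other 2 lost theirs without either maternal library. The class count was 6 and 8 without maternal replicate 1 and 2.

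The 24 tiles called lower stood at 53.0% and 49.0% in the maternal libraries, 1.55% and 0.813% in the paternal ones and 15.8% and 13.1% in oocytes. Chromosome 9, 54997001 to 54997400, with 36 positions, stood at 51.1% and 66.3% in the maternal libraries, at 0% in the paternal ones (0 of 1158 and of 2065 calls, up to 0.259% and 0.145%) and at 0% in both oocyte libraries (highest adjusted p = 0.0147 in the quasi-binomial model). Chromosome 2, 38212401 to 38212700 stood at 80.7% and 39.4% and the tile at chromosome 6, 142912901 to 142913000 at 100% and 91.5%, with 0% in both paternal libraries and 7.94% to 23.6% in oocytes. Each of the 3 lost its call without 1 of the maternal libraries, and the class count was then 5 and 14. It was 14 and 11 without paternal replicate 1 and 2.

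The first 3 oocyte-only regions, at chromosome 4, 101760301 to 101760500, chromosome 11, 3883701 to 3884200, and chromosome 11, 87430401 to 87430800, were at 0% in both paternal and 100% in both maternal libraries, with upper limits of 1.80% or less on the paternal side. The first sperm-only region, at chromosome 16, 18416601 to 18416800, was at 99.6% and 94.2% against 0.131% and 0% (0 of 246 calls, up to 1.22%). Among partly methylated tiles 293 (2.88%) were called lower and 154 (1.52%) higher, against 1.87% and 1.42% of all tiles, so the higher share was close to that over all tiles. The region at chromosome 5, 73324301 to 73324500, with 29.2% and 30.3% in sperm and 99.5% and 99.3% in oocytes, stood at 0.313% and 0.121% in the paternal and 97.0% and 99.9% in the maternal libraries (highest adjusted p = 0.000654 in the quasi-binomial model). It kept a called tile whichever library was left out. The oocyte-only and sperm-only regions named before it each lost their call without at least 1 maternal library. The region at chromosome 13, 16192401 to 16192600 went the other way, at 95.4% and 89.4% against 0% (0 of 522 calls, up to 0.575%) and 2.62%. That region lost its call without maternal replicate 1. Without maternal replicate 1 and 2 the counts of this class were 48 and 64 lower and 13 and 19 higher, and without paternal replicate 2 it had 169 lower.

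The parental gap of WT mock pronuclei was last set beside the nearest 2 conditions, on tiles methylated in both gametes and also covered there. Zygotes kept in 3 µg/ml aphidicolin, which blocks DNA polymerases and so replication, from 5 hours after fertilisation were compared over 2275 tiles. WT mock stood at 55.1% ± 2.31 in paternal and 82.2% ± 2.01 in maternal libraries, and WT aphidicolin at 93.5% ± 1.63 and 94.7% ± 0.243 (SD, n = 2 each). The parental difference was -27.1 points (between -30.2 and -24.1) in mock and -1.18 points (between -2.50 and 0.144) with aphidicolin. Zygotes from CKO females (Zp3-Cre, f/-), in which Cre expressed in growing oocytes deletes the maternal Tet3, were compared over 9720 tiles. They stood at 66.6% ± 0.630 in paternal and 81.8% ± 1.27 in maternal libraries, where WT mock had 51.4% ± 2.72 and 81.8% ± 2.52 (SD, n = 2 each). The parental difference was -30.4 points (between -34.1 and -26.7) in WT and -15.2 points (between -16.5 and -13.8) in CKO. The CKO libraries differed in their chromosome Y calls: paternal replicate 1 had 0.00752% against 0.0186% in replicate 2, and maternal replicate 1 had 0.00297% against 0.000296% in replicate 2. Calls on X were 1.66% and 0.970% of autosomal calls in the CKO paternal libraries. The CKO difference was -15.6 points without paternal replicate 1, -16.0 without maternal replicate 1, and -16.5 between the 2 replicates numbered 2.

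The ranges of the parental difference thus did not overlap between WT mock and either condition. The difference of the 2 parental differences was -26.0 points for aphidicolin and -15.3 for CKO. It was tested by exact two-sided permutation of the condition within each parent, which gave p = 0.333 and 0.222 over 36 arrangements, both 0.333 after adjustment, and so did not pass. This test takes as its null that the condition changes neither parent. With aphidicolin the maternal libraries were also higher than in mock, and arrangements that swap them give a larger value than the one observed. Chromosomes are sorted in the mock files and unsorted in the aphidicolin files, so a difference in processing cannot be told apart from the treatment. The CKO mock files are sorted as the WT mock files are.

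**Figure D5:**
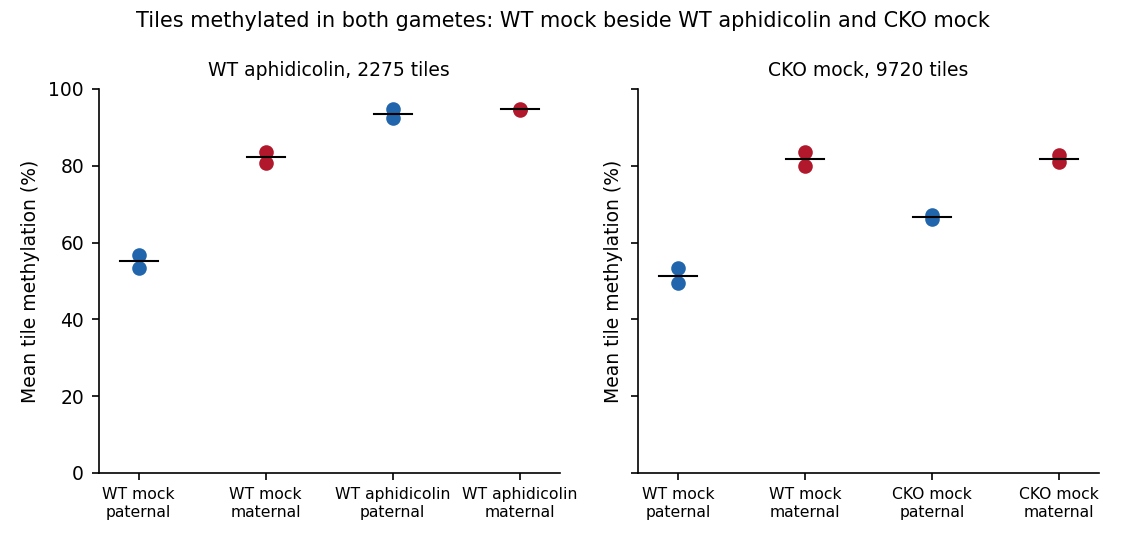
Mean methylation (%) of tiles methylated in both gametes for paternal (blue) and maternal (red) libraries of WT mock beside WT aphidicolin (left, 2275 tiles) and beside CKO mock (right, 9720 tiles), with 1 point per library and a bar at the mean. The gap between blue and red is 27.1 points in WT mock and 1.18 with aphidicolin on the left, and 30.4 in WT mock and 15.2 in CKO mock on the right.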

How the data were processed

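The tools named, per the submitters' processing notes, are Trim Galore and Bismark 0.10.1, and the build is mm9. Any filter or duplicate removal is not given in the sources used here. The deposited files give, per CpG position, counts of methylated and unmethylated calls, not normalised, and a deposited percent that equals 100 times methylated over all calls. Calls were summed per tile over positions shared by the 8 libraries, and tiles were weighted equally. The tile test was a quasi-binomial model fitted to the 4 libraries, with overdispersion taken from groups in which each library expected at least 5 calls of both kinds, shrunk on a trend over depth with limma 3.58.1 squeezeVar, and floored at 1 (R 4.3.3). It was tested on simulated data of 103160 tiles: of tiles lowered by 20, 40 and 60 points it called 0 of 67, 2 of 67 and 3 of 66, and of 83903 unchanged tiles 5. A first version of the simulation, with no difference outside 200 changed tiles, gave no calls; the simulation was then revised to keep the measured levels of tiles methylated in 1 gamete, and the tile model was left as it was. Named regions (called tiles less than 500 bp apart, at least 2, without overlap between the parents) were taken by rank of difference per class and direction: the first 6 each way for tiles methylated in both gametes and the first 3 for other classes, with single called tiles where regions were under 3, and uncalled tiles of at least 50 calls per library where no tile was called. The tiles, classes and rules were chosen with earlier results of these data known. Upper limits at 0% are 3 calls over all calls; they and intervals cover counting error only, since PCR copies are not independent molecules. The median dispersion was 61.0, so depth overstates precision. Only 49567 of the 103160 tiles had a dispersion of their own, with a median of 27.5 before shrinkage. The prior degrees of freedom were infinite, so shrinkage was complete and each tile took the value of the trend.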

Additional observations from a re-analysis of the deposited data

Results flagged for a closer look

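Calls on chromosome Y, which entered no comparison of tiles, were above the oocyte level in both maternal libraries. They took 0.000692% of calls in maternal replicate 1 (459 calls, exact 95% interval 0.000630% to 0.000758%) and 0.000198% in maternal replicate 2 (118 calls, 0.000164% to 0.000238%), against 3.44e-05% and 4.41e-05% in the oocyte libraries (14 and 20 calls). The paternal libraries had 0.0178% and 0.0150%.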

How the results depend on the processing

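In tiles methylated in both gametes the parental difference lay between -32.4 and -26.7 points over all 16 alternatives, and without any 1 library between -32.1 and -28.4; the difference in share kept lay between -33.2 and -29.4 without any 1 library and was -27.8 weighted by calls, an alternative chosen after seeing the data, as was leaving out CKO libraries. Weighted by calls, the difference was 50.6 in sperm-only, -79.1 in oocyte-only, 0.342 in unmethylated and 2.03 in partly methylated tiles, -0.126 over all tiles, and -22.1 for mock minus aphidicolin. With 1000-bp tiles it was 1.94 in unmethylated, 7.41 in partly methylated and 6.06 over all tiles. Oocyte-only tiles gave -81.2 with classes at 90% and 10% and -78.2 with the limit met in each gamete library. Tile counts depended on the dispersion. In tiles methylated in both gametes they were 546 lower and 15 higher with dispersion from 8 mock libraries, 130 and 4 with the floor before shrinkage, 445 and 33 by limma on arcsine square roots, and 963 and 19 in 1000-bp tiles. Limma shared 36 of the 204 calls of this class. Over all tiles the counts were 2987 lower and 3014 higher with 8 libraries and 3142 and 5519 in 1000-bp tiles. The cause was not tested. Without 1 library the counts in tiles methylated in both gametes lay from 6 to 265 lower and 0 to 5 higher, and over all tiles from 462 to 1567 and 64 to 1463; the remaining library of a parent took its spread from the other parent's pair. The ranking rule took 27 called regions or tiles, not all of which are given above. Of these, 24 lost their calls without at least 1 library, 11 by limma and 2 with the replicate block. The labels do not say that a replicate number marks a shared batch, so libraries were not paired. Across tiles same-numbered libraries did not deviate together (r = 0.00243), but replicate 2 was above replicate 1 in both parents in every class, by 3.67 and 3.53 points in tiles methylated in both gametes. With a replicate block the parental difference stayed at -30.2 points (exact sign-flip permutation over 2 pairs, p = 0.5, the smallest possible), and 188 tiles were called in the class, 125 of them shared. Regions were not recomputed in 1000-bp tiles. With 2 libraries a group, the exact permutation test used for parental means could not pass.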

Other observations

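Chromosome X was left out of the tiles above, since only some sperm carry it. Over 103 X-linked tiles methylated in both gametes the paternal libraries stood at 55.6% and 62.6% and the maternal ones at 75.0% and 78.4%, a difference of -17.6 points (4 differences between -22.9 and -12.4), with 93.1% in sperm and 92.6% in oocytes. Whether this differs from the autosomes was not tested. Calls on X were 0.923% and 1.16% of autosomal calls in the paternal libraries and 2.21% in both maternal ones.

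Both paternal libraries lay below both maternal ones in 91 of the 15876 sperm-only tiles (0.573%), against 12.6% of all tiles. Among those with at least 50 calls per library the first 3 by difference were named, and none was called. They had the paternal genome at 0% in both libraries and a higher maternal one. A higher maternal level was part of the rule that chose them. They were at chromosome 14, 73425601 to 73425700 (maternal 100% and 54.5%), chromosome 3, 137400501 to 137400600 (78.2% and 63.8%) and chromosome 8, 126297701 to 126297800 (45.5% and 62.5%). Upper limits on the paternal side were between 1.64% and 3.57%. In oocyte-only tiles the reverse was seen at chromosome 15, 95597901 to 95598000, with 100% in both paternal libraries and 22.1% and 16.7% in the maternal ones. Libraries of the wrong gamete had 13.1% or less at the first 3 and 20.2% or less at the chromosome 15 tile. The next oocyte-only tile higher in paternal libraries, at chromosome 6, 8315601 to 8315700, differed by 14.1 points. It was not called, and the sperm libraries had 27.5% or less there.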
